A study of Mus musculus with 18 samples.

Results

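The 47 mitosis and G2/M genes described here encode the kinases, cyclins, spindle, kinetochore, cytokinesis and chromosome condensation proteins of dividing cells. They were chosen by symbol from a fixed list, all 47 were found among the 23420 genes of the files, and all 47 passed the filter on low values in every comparison. RNA was sequenced from B cells of the spleen of MRL/lpr mice, which carry the Fas lpr mutation and develop a lupus-like disease, at an age of 5 to 7 weeks. The cells had been purified by negative selection on beads and cultured for 4 h. There were 18 libraries, 3 in each of 6 groups. Mice of the first arm were female and Tlr7-/-. Their control genotype was labelled Tlr9+/- Tlr7-/- and is called Tlr9het here, while Tlr997 Tlr7-/- cells, called Tlr997, carried at the Tlr9 locus a TLR9 whose signaling TIR domain was that of TLR7. Both genotypes were left unstimulated or received 10 µg/ml of CpG, a DNA oligonucleotide agonist of TLR9. In the second arm the mice were male, Tlr9-/- and carried at the Tlr7 locus a TLR7 with the TIR domain of TLR9. These cells, called Tlr779, were left unstimulated or received 5 µg/ml of CL097, a small molecule agonist of TLR7. The study's methods give an age of 5 weeks for the first arm and of 5 to 7 weeks for the second. The arms thus differed in sex, genotype, agonist and stated age, whose parts cannot be told apart, and no test was made between them. One text of the submitters names the control of the first arm Tlr9-/- and the sample titles name it Tlr9+/-. The titles were followed.

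Genes of this kind are transcribed late in the cell cycle, so that resting B cells hold little of their RNA and cells on the way to division hold much. In the promoters of many of them lie a CHR element and CCAAT boxes, which are known as the sites where the DREAM and MuvB complexes and NF-Y bind and through which these genes are shut off in resting cells and switched on in G2. Splenic follicular B cells are mostly quiescent, whereas the red pulp of the mouse spleen also harbours dividing erythroid precursors.

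Levels are given as log2 CPM, the logarithm of counts scaled to a common library size, and replicate values are listed in the order of replicate numbers 1, 2 and 3. CPM summed to between 991992 and 1004412 per library, and the depth of each library is unknown because no counts were given. Without agonist, Tlr7 averaged 3.15 ± 0.42 log2 CPM in Tlr9het, 4.96 ± 0.20 in Tlr997 and 6.88 ± 0.40 in Tlr779 (SD, n = 3 each). A value per gene does not tell which stretch of a targeted locus gave the reads, and Tlr9 averaged 7.24 ± 0.08 in the libraries labelled Tlr9-/- against 7.37 ± 0.10 in Tlr9het (SD, n = 3 each). The mean of 7 B cell markers lay between 9.15 and 9.53 log2 CPM in unstimulated libraries, and between 7.50 and 7.54 with CpG in Tlr9het, 7.92 and 8.22 with CpG in Tlr997 and 8.23 and 8.44 with CL097. A pair of libraries stood apart for the mitotic genes: replicate 3 of unstimulated Tlr997, where Ckap2, Cdc20 and Ccnb1 were low, and replicate 1 with CL097, where most of the 47 genes did not share the rise of replicates 2 and 3. Where a call rests on them, its value without them is given. In whole preparations, fewer dividing cells and less RNA per dividing cell cannot be told apart.

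Promoter sequences from the RefSeq tables of GRCm38.p6 are shown for 6 genes on whose values the results turn: Cdk1, Ckap2 and Melk among those that rose, Cenpa and Ndc80 among those that fell, and Mki67, whose level varied with the erythroid markers of a library. Each runs 5′ to 3′ along the gene's strand from 250 bases before the annotated start and holds 30 bases from the start on. Capitals mark CHR letters (TTTGAA or TTCGAA, or TTCAAA read on the other strand) and CCAAT letters (CCAAT, or ATTGG read on the other strand).
Cdk1 (chr10:69352883-69353162, minus strand): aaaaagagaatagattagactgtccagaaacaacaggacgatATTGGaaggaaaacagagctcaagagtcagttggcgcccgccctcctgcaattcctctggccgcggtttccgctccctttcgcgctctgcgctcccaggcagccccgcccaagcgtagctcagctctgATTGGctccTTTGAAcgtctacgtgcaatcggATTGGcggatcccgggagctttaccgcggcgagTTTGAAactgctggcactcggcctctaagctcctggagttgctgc
Ckap2 (chr8:22185790-22186069, minus strand): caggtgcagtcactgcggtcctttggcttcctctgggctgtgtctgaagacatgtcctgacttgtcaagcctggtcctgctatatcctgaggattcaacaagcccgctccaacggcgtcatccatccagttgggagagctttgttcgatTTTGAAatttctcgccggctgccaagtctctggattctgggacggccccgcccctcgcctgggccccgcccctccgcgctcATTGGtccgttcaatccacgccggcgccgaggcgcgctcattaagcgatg
Melk (chr4:44300667-44300946, plus strand): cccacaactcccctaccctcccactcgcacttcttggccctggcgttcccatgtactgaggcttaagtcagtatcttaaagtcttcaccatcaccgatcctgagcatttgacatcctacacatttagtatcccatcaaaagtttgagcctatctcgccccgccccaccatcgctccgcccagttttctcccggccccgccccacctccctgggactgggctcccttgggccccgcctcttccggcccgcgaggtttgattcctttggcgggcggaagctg
Cenpa (chr5:30666636-30666915, plus strand): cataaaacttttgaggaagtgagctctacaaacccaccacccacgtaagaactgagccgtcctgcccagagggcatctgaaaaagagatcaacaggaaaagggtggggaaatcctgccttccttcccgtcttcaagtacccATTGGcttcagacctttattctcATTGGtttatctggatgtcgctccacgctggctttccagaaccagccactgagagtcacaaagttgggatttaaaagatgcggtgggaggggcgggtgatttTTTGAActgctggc
Ndc80 (chr17:71526828-71527107, minus strand): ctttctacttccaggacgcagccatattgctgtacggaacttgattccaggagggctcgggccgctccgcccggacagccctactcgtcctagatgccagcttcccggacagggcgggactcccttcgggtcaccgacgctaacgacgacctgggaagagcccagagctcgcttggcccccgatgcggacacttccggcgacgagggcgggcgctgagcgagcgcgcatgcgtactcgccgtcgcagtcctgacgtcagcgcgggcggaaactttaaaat
Mki67 (chr7:135716350-135716629, minus strand): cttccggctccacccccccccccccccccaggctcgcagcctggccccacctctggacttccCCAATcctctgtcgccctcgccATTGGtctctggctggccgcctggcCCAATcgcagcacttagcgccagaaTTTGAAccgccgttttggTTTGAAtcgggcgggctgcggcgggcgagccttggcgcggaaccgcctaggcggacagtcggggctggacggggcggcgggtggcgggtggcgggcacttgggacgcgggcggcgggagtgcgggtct
The windows of Cdk1 and Mki67 each held 2 CHR and 3 CCAAT matches, that of Cenpa held 1 and 2, that of Ckap2 held 1 and 1, and those of Melk and Ndc80 held neither. Of the 47 genes, 40 matched the promoter table. Ccna2, Aurkb, Spc24, Kif20a, Tpx2, Dlgap5 and Smc4 did not. CHR letters were found in 30 of 42 windows of the 40 genes (71.4%) and in 18.4% of all 32851 windows, and CCAAT letters in 32 of 42 (76.2%) and in 36.1% of all. The κB consensus, a match to the binding motif of NF-κB, was in 3 of 42 windows (7.14%) and in 7.94% of all. These matches describe the letters in the windows and are not shown to be bound sites.

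Before any agonist, the mitotic genes were readily measured in the B cell preparations and their level differed from library to library. Averaged over the 47 genes, the 3 unstimulated Tlr9het libraries were at 3.75, 3.44 and 3.09 log2 CPM, the 3 of Tlr997 at 3.97, 3.55 and 3.22, and the 3 of Tlr779 at 4.03, 4.24 and 4.23. Replicates of the Tlr7-/- arm thus spread over a wider range than the means of its genotypes, which were 3.42 ± 0.33 and 3.58 ± 0.37 (SD, n = 3 each), while Tlr779 stood at 4.17 ± 0.12 (SD, n = 3). In both genotypes of the Tlr7-/- arm the level fell from replicate 1 to 2 to 3. Differences between mice and between replicate numbers therefore cannot be told apart there. Mki67, which encodes the Ki-67 antigen that coats mitotic chromosomes, was at 7.3, 6.05 and 5.14 log2 CPM in unstimulated Tlr9het, 7.42, 6.22 and 5.81 in Tlr997 and 7.26, 7.18 and 7.08 in Tlr779. The 2 genotypes of the Tlr7-/- arm overlapped for Mki67, and within each of them the libraries differed by more than 1 log2 unit. Top2a, the topoisomerase that untangles sister chromatids, spread less and was at 6.24, 6.07 and 5.85 log2 CPM in unstimulated Tlr9het, 6.54, 6.24 and 5.74 in Tlr997 and 6.74, 7.05 and 6.92 in Tlr779.

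Libraries with more mitotic RNA tended to hold more erythroid RNA. The mean of 4 erythroid markers was 5.80, 3.79 and 2.14 log2 CPM in unstimulated Tlr9het, 6.96, 3.31 and 3.58 in Tlr997 and 4.89, 6.76 and 5.17 in Tlr779. These markers were the red cell membrane proteins Slc4a1 and Ermap, the heme synthesis enzyme Alas2 and the carbonic anhydrase Car2, chosen after their values had been seen from a list of 14 symbols, of which 12 were in the files. Of the rest, Klf1, Epor and Car1 were low in most libraries. Replicates 2 and 3 with CL097 held their highest values: Klf1 3.67 and 3.54 log2 CPM, Epor 1.78 and 1.75, Car1 3.91 and 5.32. The globins Hba-a1, Hba-a2, Hbb-b1 and Hbb-b2 were at or near the lowest values of the files in all 18 libraries, and Tfrc was left out because it rises in activated lymphocytes too. Summed over these markers without Tfrc, erythroid CPM ranged from 23.1 to 317 in unstimulated Tlr9het, 46.8 to 847 in Tlr997 and 155 to 730 in Tlr779, and from 19.7 to 228, 35.7 to 434 and 161 to 1082 with agonist. With Tfrc, all 12 summed to between 202 and 1106 without and between 514 and 1604 with agonist. The antibodies of the bead purification named by the study were to CD43, CD4, CD8, CD11b, CD11c and Gr-1. The splenocytes were prepared by a protocol that lyses red blood cells. How far these steps removed erythroid or other cells was not tested.

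Over the 9 unstimulated libraries, which came from separate mice as far as the protocol tells, a linear fit with a mean per group gave each gene a slope on the erythroid level. The slope was positive for 47 of 47 mitotic genes and for 44.99% of all 11183 genes fitted, with medians of 0.14 and -0.0043 log2 CPM per log2 unit. Of these, 4 were called at an adjusted p under 0.05 in limma, Ube2c, Mki67, Prc1 and Ect2, against 0.501% of all genes fitted. Ube2c, the ubiquitin-conjugating enzyme of the anaphase-promoting complex, had a slope of 0.44 ± 0.06 (SE, limma adjusted p = 0.0099), and its level was 2.77, 1.96 and 1.35 log2 CPM in Tlr9het, 3.44, 2.09 and 1.54 in Tlr997 and 3.41, 4.32 and 3.35 in Tlr779. For Mki67 the slope was 0.42 ± 0.07 (SE, limma adjusted p = 0.0283). Prc1, which bundles microtubules of the central spindle, had one of 0.23 ± 0.04 (SE, limma adjusted p = 0.0228), and Ect2, the exchange factor that activates RhoA for cytokinesis, one of 0.22 ± 0.04 (SE, limma adjusted p = 0.0469). Shallow slopes belonged to Cenpa (0.03 ± 0.03, SE), Smc4 (0.04 ± 0.03) and Melk (0.05 ± 0.09). With any 1 of the 9 libraries left out, 46 or 47 of the 47 slopes stayed positive, and with the replicate number as a term 45 did.

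**Figure D1:**
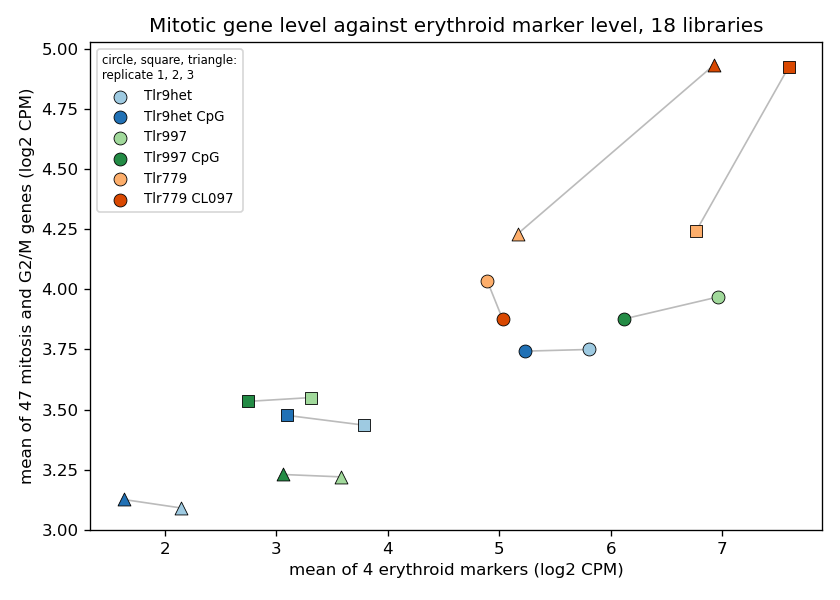
Mean of the 47 mitosis and G2/M genes (log2 CPM, vertical axis) against the mean of 4 erythroid markers (log2 CPM, horizontal axis) in each of the 18 libraries, with a grey line between an unstimulated and a stimulated library of the same number. Libraries with high erythroid markers sit high for the mitotic genes, from 3.09 to 4.93 log2 CPM, and CL097 replicates 2 and 3 lie above all others.

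Fitted over all 18 libraries, 46 of 47 slopes were positive and 25 were called positive, against 2.19% of 11676 genes fitted. Stimulated and unstimulated cells may share mice in that fit, and its p-values are then too small. Mki67 (0.48 ± 0.06, SE) and Ube2c (0.44 ± 0.05) again had steep slopes. Macrophage markers also moved with the mitotic genes: the slope on their mean was positive for 45 of 47 over the 9 libraries and for 46 over the 18. It was called positive for 2 of the 47 over the 9 libraries, against 0.143% of all genes fitted, and for 31 over the 18, against 5.34%. At an unadjusted p under 0.05 in limma, 30 of the 47 had a macrophage slope over the 9, beside 16.68% of all genes fitted. An erythroid slope at that p was found for 26 of the 47, beside 4.748% of all genes fitted. With both marker levels in 1 fit of the 9 libraries, the erythroid slope was positive for 38 and the macrophage slope for 31 of the 47. Levels of germinal centre and plasmablast markers had no slope called for any of the 47 in either set of libraries. At an unadjusted p under 0.05 in limma over the 9, 4 and 1 had one, beside 4.686% and 9.255% of all genes. Germinal centre slopes were positive for 6 of the 47 over the 9 and 4 over the 18, plasmablast slopes for 33 and 19. Slopes on 2 megakaryocyte markers were positive for 41 and 46, on B cell markers for 17 and 44, with 0 called. Over all genes, between 47.7% and 52.36% of these slopes were positive. Whether the mitotic RNA came from erythroid cells, from B cells or from others was not tested.

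Treatment with agonist for 4 h moved a minority of the mitotic genes, and not in 1 direction. With CpG, 4 rose and 6 fell in Tlr9het, and 3 rose and 6 fell in Tlr997. With CL097, 6 rose and 2 fell in Tlr779. Melk and Ckap2 rose in all 3 comparisons, Cenpa and Ndc80 fell in all 3, and 33 of the 47 were called in none. A gene was called at a limma adjusted p under 0.05 with a log2 fold change over 0.5 in size. By that rule 29.7% of 11494 genes tested rose and 28.2% fell with CpG in Tlr9het, 29.6% rose and 26% fell in Tlr997, and 22.7% of 11082 rose and 23.6% fell with CL097 in Tlr779. In this fit, which has no replicate block, the share of mitotic genes called was below that over all genes tested in both directions in each comparison, and calls below are those of this fit unless another is named. The median log2 fold change of the 47 was 0.11 in Tlr9het, -0.01 in Tlr997 and 0.52 in Tlr779, beside 0.04, 0.07 and -0.02 over all genes tested. Beside these changes the mean of the 7 B cell markers was lower with agonist, as given above. Of the 7, 6 were called lower with CpG in Tlr9het, 3 in Tlr997 and 5 with CL097, and Pax5 was called higher in Tlr9het. The T cell mean covers Cd4, Cd8a, Lck and Cd247, the 4 of 8 markers that averaged over 0 log2 CPM. Cd3d, Cd3e, Cd3g and Thy1 were left out of it. That mean went from between 1.35 and 1.99 log2 CPM to between 2.55 and 3.26 with CpG in Tlr9het. In Tlr997 it went from between -0.27 and 1.90 to between 2.05 and 2.89, and with CL097 from between 0.55 and 1.29 to between 0.73 and 1.79. With CL097 only 1 of the 8 passed the filter on low values, and it was not called. NK cell markers had median log2 fold changes of 1.67 and 1.52 with CpG in Tlr9het and Tlr997, over the 5 tested. Their levels were low: all NK markers summed to between 5.81 and 11.3 CPM in unstimulated Tlr9het and between 4.39 and 9.26 in Tlr997. In replicate 3 of unstimulated Tlr997, Gzmb (-4.65 log2 CPM) and Ncr1 (-4.89) were near the lowest values of the files, while Prf1 was at 1.75. Of 8 erythroid markers tested, Tfrc among them, 8 had a log2 fold change above 0 with CL097 (median 1.28). With CpG 2 did in Tlr9het (median -0.26) and 3 in Tlr997 (-0.38). In each comparison 1 was called higher, Tfrc, which rises in activated lymphocytes too. It went from 7.94, 7.55 and 7.49 log2 CPM to 9.23, 9.11 and 8.95 with CpG in Tlr9het. In Tlr997 it went from 8.02, 7.67 and 7.65 to 9.12, 9.06 and 8.88, and with CL097 from 7.6, 7.93 and 7.66 to 8.76, 9.03 and 8.8. The part of these marker shifts in the values of the mitotic genes was not tested.

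**Figure D2:**
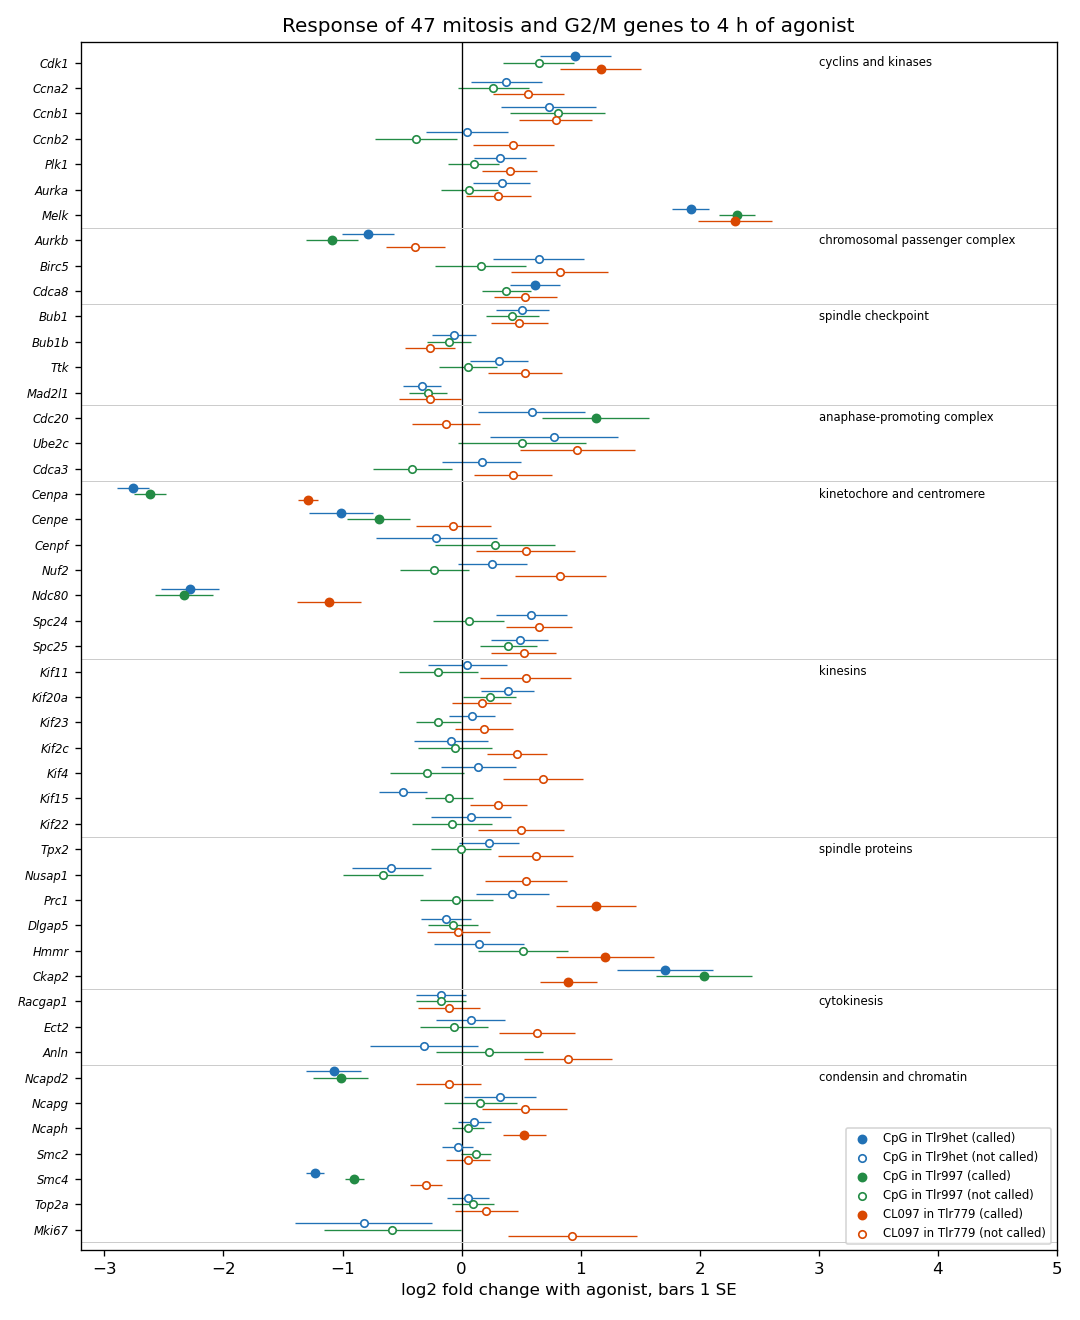
Log2 fold change with agonist (horizontal axis, bars 1 SE) of the 47 genes, ordered by role, in the 3 stimulation comparisons, with filled points for called genes. Cenpa and Ndc80 lie far to the left, at -2.76 and -2.28 with CpG in Tlr9het, and Melk and Ckap2 far to the right, at 1.93 and 1.71.

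The counts depended on how the libraries were matched. In Tlr9het and Tlr779, where libraries of the same number deviated from their group means together, a fit with the replicate number as a block called 8 genes up and 8 down for CpG in Tlr9het, where it called 30.2% of all genes tested higher and 28.5% lower. For CL097 in Tlr779 it called 16 up and 2 down, where it called 23.9% of all genes higher and 24.7% lower. The share of the 47 called higher with CL097 was thus above that over all genes in the blocked fit and below it in the fit without the block. In Tlr997, where numbers pair the libraries only in part, the block called 7 up and 8 down, beside 30.1% and 26.5% of all genes. The genes it added in Tlr9het were Ccnb1, Birc5, Bub1 and Ube2c among those higher and Mki67 and Nusap1 among those lower. Those it added with CL097, all of them higher, were Ccna2, Ccnb1, Birc5, Ttk, Ube2c, Nuf2, Spc24, Spc25, Ect2 and Anln. Leaving out replicate 1 of Tlr9het with CpG took the 4 higher calls to 2, and leaving out replicate 3 of unstimulated Tlr997 took them to 7. In Tlr997 the 3 higher calls became 7 without replicate 1 of the unstimulated libraries. The erythroid level was lower with CpG than without in 6 of 6 libraries of the same number, by 0.51 to 0.84 log2 units. With that level as a covariate, an alternative chosen after the marker values had been seen, 10 rose and 7 fell in Tlr9het, beside 29.7% and 28.4% of all genes, and 7 rose and 7 fell in Tlr997, beside 29.5% and 26.2%.

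The deepest falls were in the kinetochore group, of which 3 of 7 members fell with CpG. Of all genes tested, 28.2% fell with CpG in Tlr9het and 26% in Tlr997. Cenpa, on chromosome 5, encodes the histone H3 variant that marks the centromere. It was at 5.42, 5.53 and 5.38 log2 CPM in unstimulated Tlr9het and 2.86, 2.80 and 2.40 with CpG, and at 5.69, 5.61 and 5.40 and 2.86, 3.10 and 2.88 in Tlr997. In Tlr779 it went from 5.77, 5.78 and 5.70 to 4.49, 4.39 and 4.51 with CL097. Stimulated and unstimulated libraries did not overlap in any of the 3. Its log2 fold change was -2.76 ± 0.13 (SE, limma adjusted p = 5.21e-10) in Tlr9het, -2.62 ± 0.13 (1.12e-09) in Tlr997 and -1.29 ± 0.08 (9.88e-06) in Tlr779.

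Ndc80, the subunit of the NDC80 complex that grips spindle microtubules, followed the same course. Its levels were 4.66, 4.52 and 4.39 log2 CPM in unstimulated Tlr9het and 2.49, 2.37 and 1.86 with CpG. In Tlr997 they were 4.67, 4.31 and 4.17 and 2.55, 2.08 and 1.53, and in Tlr779 4.41, 4.33 and 4.67 and, with CL097, 2.69, 3.68 and 3.70. No stimulated library reached the lowest unstimulated one of its genotype, and with CL097 replicate 1 lay 1 log2 unit under the other two. The log2 fold changes were -2.28 ± 0.24 (SE, limma adjusted p = 1.42e-06), -2.33 ± 0.24 (1.28e-06) and -1.11 ± 0.27 (0.00771). None of the other subunits of the complex was called as first fitted: Nuf2 changed by 0.26 ± 0.29, -0.23 ± 0.29 and 0.83 ± 0.38 (SE), Spc24 by 0.59 ± 0.30, 0.06 ± 0.30 and 0.65 ± 0.28, and Spc25 by 0.49 ± 0.24, 0.39 ± 0.24 and 0.52 ± 0.28 in Tlr9het, Tlr997 and Tlr779. Some other settings called them higher. With CL097, Nuf2, Spc24 and Spc25 were called with the block and without CL097 replicate 1. In Tlr9het, Spc24 and Spc25 were called with the erythroid covariate (limma adjusted p = 0.042 and 0.00287). Cenpe, the kinesin that carries chromosomes to the spindle equator, fell with CpG by 1.01 on the log2 scale in Tlr9het (limma adjusted p = 0.00389) and by 0.70 in Tlr997 (0.0322), a call that 8 of 26 other settings lost, those without unstimulated replicate 1 (0.106) or 2 (0.0684) and without CpG replicate 2 (0.0658) or 3 (0.104) among them. It changed by -0.07 ± 0.32 (SE) with CL097.

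Among the condensins and chromatin proteins, 2 of 7 fell with CpG, beside 28.2% of all genes in Tlr9het and 26% in Tlr997. With CL097 1 rose, beside 22.7% of all genes. Smc4, on chromosome 3, is a core ATPase of condensin, the ring complex that compacts chromosomes. Its levels were 8.13, 7.94 and 7.79 log2 CPM in unstimulated Tlr9het and 6.80, 6.75 and 6.62 with CpG, and 7.89, 7.83 and 7.89 and 6.98, 7.03 and 6.90 in Tlr997. They were 8.02, 7.89 and 7.69 in unstimulated Tlr779 and 7.29, 7.77 and 7.64 with CL097, where replicates 1 and 3 lay below every unstimulated library and replicate 2 did not. With CpG the groups were separate in both genotypes, with log2 fold changes of -1.23 ± 0.08 (SE, limma adjusted p = 8.19e-09) and -0.90 ± 0.08 (2.26e-07), whereas the change of -0.30 ± 0.13 with CL097 was not called. Ncapd2, a non-SMC subunit of condensin I, fell by 1.07 in Tlr9het (limma adjusted p = 0.000879) and by 1.01 in Tlr997 (0.00141) on the log2 scale and changed by -0.11 ± 0.28 (SE) with CL097. Smc2, the partner of Smc4 in the condensin ring, changed by -0.03 ± 0.13, 0.12 ± 0.13 and 0.05 ± 0.19 (SE) in the same order and was not called. The gene model of Smc4 overlaps Mir15b and Mir16-2, and that of Ncapd2 overlaps Scarna10.

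Within the chromosomal passenger complex, which corrects faulty attachments of chromosomes to the spindle, the members parted. Aurkb, its kinase, was at 4.12, 3.65 and 3.59 log2 CPM in unstimulated Tlr9het and 2.98, 3.20 and 2.81 with CpG. In Tlr997 it was at 4.28, 4.11 and 4.21 and 3.51, 3.25 and 2.58, and in Tlr779 at 4.49, 4.45 and 4.47 and, with CL097, 3.43, 4.37 and 4.44. All 6 libraries with CpG lay below the unstimulated ones of their genotype, and with CL097 replicate 1 stood alone 1 log2 unit down. Log2 fold changes were -0.79 ± 0.22 (SE, limma adjusted p = 0.00542) in Tlr9het, -1.09 ± 0.22 (0.000568) in Tlr997 and -0.39 ± 0.25 (0.207) in Tlr779. Cdca8, which encodes the borealin subunit, was at 3.32, 2.76 and 2.62 log2 CPM in unstimulated Tlr9het and 3.74, 3.51 and 3.30 with CpG, at 3.46, 3.08 and 3.44 unstimulated and 4.01, 3.64 and 3.45 with CpG in Tlr997 and at 3.87, 3.77 and 3.67 unstimulated and 3.63, 4.66 and 4.63 with CL097 in Tlr779. It was called in Tlr9het, at 0.62 ± 0.21 log2 units (SE, limma adjusted p = 0.0169), and 4 of 26 other settings lost the call, among them those without unstimulated replicate 2 (0.0597) or 3 (0.0764) and without CpG replicate 1 (0.0728). The difference between its CpG responses in Tlr997 and Tlr9het was not called. Its stimulated and unstimulated libraries overlapped in every comparison. Birc5, which encodes survivin, changed by 0.65 ± 0.38, 0.16 ± 0.38 and 0.82 ± 0.41 (SE) and was not called.

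**Figure D3:**
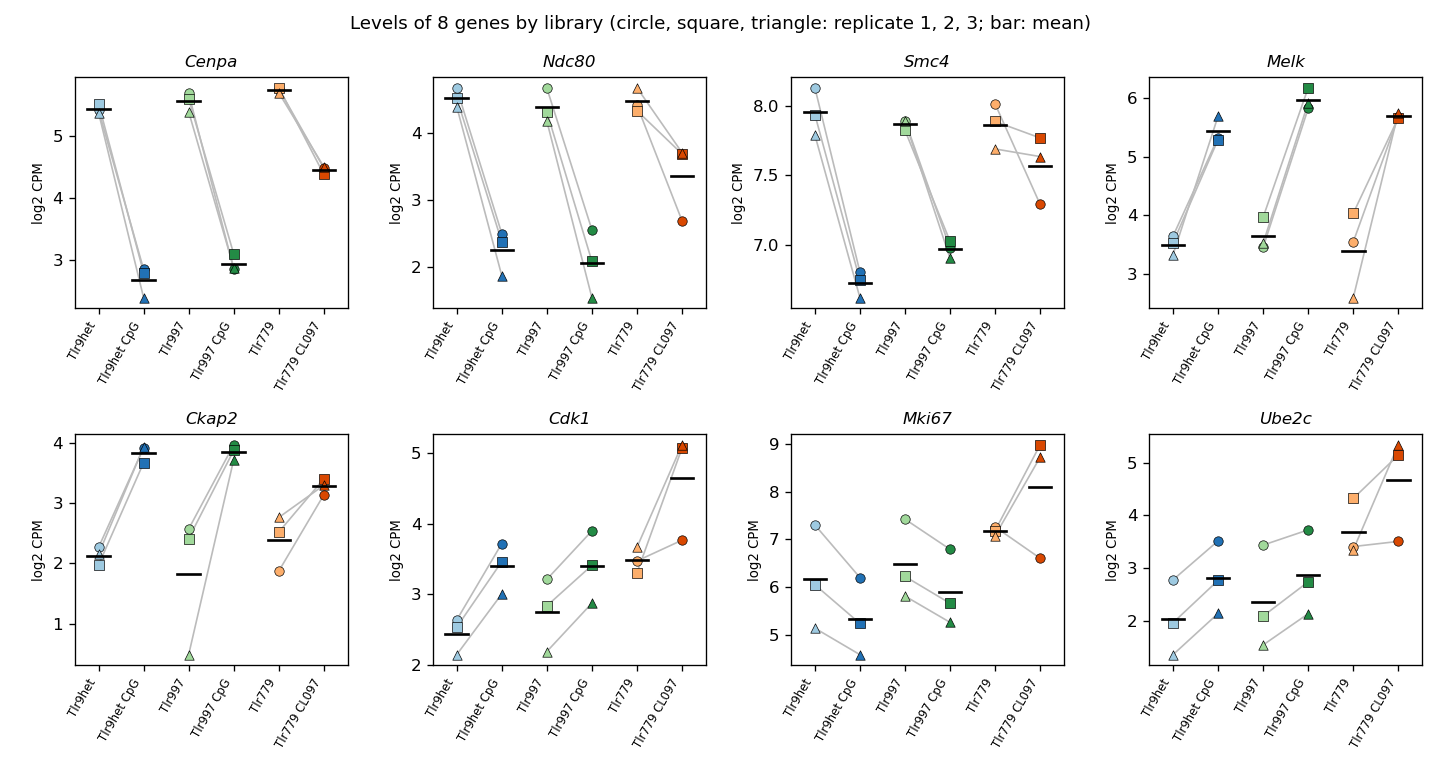
Level (log2 CPM, vertical axis) of 8 genes in the 18 libraries by group (horizontal axis), with the group mean as a bar and a grey line between libraries of the same number. Cenpa, Ndc80 and Smc4 fall with CpG, Melk and Ckap2 rise with both agonists, and for Cdk1, Mki67 and Ube2c CL097 replicates 2 and 3 (5.07 and 5.12 log2 CPM for Cdk1) stand over replicate 1 (3.77).

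Melk, on chromosome 4, a protein kinase of proliferating and progenitor cells, rose in all 3 genotypes. It went from 3.65, 3.54 and 3.33 log2 CPM to 5.32, 5.29 and 5.69 with CpG in Tlr9het and from 3.46, 3.97 and 3.53 to 5.82, 6.17 and 5.92 in Tlr997. With CL097 it went from 3.55, 4.04 and 2.6 to 5.67, 5.66 and 5.75 in Tlr779. Every stimulated library lay above every unstimulated one. Its log2 fold changes were 1.93 ± 0.16 (SE, limma adjusted p = 8.67e-08), 2.31 ± 0.16 (1.57e-08) and 2.30 ± 0.31 (0.000377), and CL097 replicate 1 shared the rise.

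Ckap2, on chromosome 8, encodes a spindle-associated protein of dividing cells. Its level was 2.27, 1.98 and 2.15 log2 CPM in unstimulated Tlr9het and 3.92, 3.67 and 3.93 with CpG. In Tlr997 it was 2.57, 2.41 and 0.48 and 3.97, 3.88 and 3.73, and in Tlr779 1.87, 2.52 and 2.76 and, with CL097, 3.14, 3.41 and 3.30. The groups were separate in each comparison, and replicate 3 of unstimulated Tlr997 lay far under all other libraries. The log2 fold changes were 1.71 ± 0.40 (SE, limma adjusted p = 0.00173) in Tlr9het, 2.04 ± 0.40 (0.000485) in Tlr997 and 0.90 ± 0.24 (0.0123) in Tlr779, and without that replicate the change in Tlr997 was 1.37 (limma adjusted p = 3.01e-06). Cdc20, the activator of the anaphase-promoting complex, was called in Tlr997, where it was at 3.03, 3.42 and 0.98 log2 CPM unstimulated and 3.77, 3.63 and 3.42 with CpG (change 1.13 ± 0.45 log2 units, SE, limma adjusted p = 0.0381). The difference between the CpG responses of the genotypes was not called for Cdc20, and the call rested on replicate 3 of unstimulated Tlr997, without which the change was 0.38 and the limma adjusted p 0.0662. It was also lost without replicate 1, 2 or 3 with CpG (0.0923, 0.0796 and 0.056). In Tlr9het Cdc20 was at 3.10, 2.83 and 3.11 log2 CPM and, with CpG, at 3.84, 3.52 and 3.45, groups that did not overlap. Its change of 0.59 ± 0.45 (SE, limma adjusted p = 0.255) there was not called in the fit of all 12 libraries, and was called without replicate 3 of unstimulated Tlr997 (0.00382), with the 6 libraries of Tlr9het alone (0.00338) and with array quality weights (0.0197). In Tlr779 it was at 3.47, 3.82 and 4.28 and, with CL097, at 3.25, 3.67 and 4.26, and was not called.

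Of the kinases and cyclins that drive entry into mitosis, Cdk1 rose in Tlr9het and Tlr779, and no cyclin was called in the fit of all libraries without the replicate block. Cdk1, on chromosome 10, is the catalytic subunit that starts mitosis when bound to a cyclin. It was at 2.64, 2.54 and 2.15 log2 CPM in unstimulated Tlr9het and 3.72, 3.46 and 3.01 with CpG, and in Tlr997 at 3.21, 2.84 and 2.19 and 3.90, 3.41 and 2.88. In Tlr779 it was at 3.47, 3.31 and 3.67 and, with CL097, at 3.77, 5.07 and 5.12. Stimulated libraries lay above unstimulated ones in Tlr9het and Tlr779 and overlapped with them in Tlr997. Its log2 fold changes were 0.96 ± 0.30 (SE, limma adjusted p = 0.0111), 0.65 ± 0.30 (0.0683) and 1.17 ± 0.34 (0.017), and it was higher with agonist in 9 of 9 libraries of the same number. The call in Tlr9het was lost without replicate 1 with CpG (limma adjusted p = 0.0519), and that in Tlr779 without unstimulated replicate 2 (0.0545) or without CL097 replicate 2 (0.0544) or 3 (0.05001).

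Ccnb1, the mitotic cyclin B1, was at 2.6, 2.30 and 1.91 log2 CPM in unstimulated Tlr9het and 3.40, 2.89 and 2.73 with CpG, at 2.84, 2.79 and 1.07 unstimulated and 3.10, 3.31 and 2.71 with CpG in Tlr997, and at 3.05, 3.33 and 3.83 unstimulated and 3.54, 4.39 and 4.65 with CL097 in Tlr779. Its log2 fold changes of 0.73 ± 0.40, 0.81 ± 0.40 and 0.79 ± 0.31 (SE) had limma adjusted p-values of 0.115, 0.0855 and 0.0542 and it was not called. With the replicate block it was called in all 3 comparisons (limma adjusted p = 0.0172, 0.0106 and 0.00278), and without replicate 3 of unstimulated Tlr997 it was called in Tlr9het (0.00983). Without CL097 replicate 1 its change in Tlr779 was 1.12 (0.0065). The block also called Ccna2, the S and G2 cyclin A2, with CL097 (0.00685) and Cdk1 with CpG in Tlr997 (0.00149). The value in replicate 3 of unstimulated Tlr997 was again the lowest. Plk1, the polo kinase of centrosome maturation and spindle assembly, went from 2.87, 2.54 and 2.53 log2 CPM to 3.13, 3.03 and 2.74 with CpG in Tlr9het, from 2.69, 2.6 and 2.07 to 2.65, 2.81 and 2.21 in Tlr997 and from 3.56, 3.42 and 3.75 to 3.47, 4.08 and 4.39 with CL097 in Tlr779. Aurka, the kinase of the spindle poles, went from 3.11, 2.89 and 2.30 log2 CPM to 3.20, 3.17 and 2.95 in Tlr9het, from 3.22, 2.87 and 2.63 to 3.39, 2.82 and 2.71 in Tlr997 and from 3.15, 3.59 and 3.63 to 3.19, 3.90 and 4.23 in Tlr779. Neither was called, with log2 fold changes between 0.07 and 0.40. The gene models of Aurka and Cstf1 overlap, as do those of Cdc20 and Elovl1, and whether reads were counted by strand is not given in the sources used here.

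With CL097 the mitotic genes split by library. Against the unstimulated library of the same number, 18 of the 47 were higher and 29 lower in replicate 1, with a median difference of -0.17 log2 units, whereas 40 were higher in replicate 2 and 41 in replicate 3, with medians of 0.77 and 0.64. The erythroid level was 0.14 higher in replicate 1, 0.83 in replicate 2 and 1.76 in replicate 3. Mki67 went from 7.26, 7.18 and 7.08 log2 CPM to 6.60, 8.98 and 8.72, so that it was lower in replicate 1 and higher in the other two, and Top2a went from 6.74, 7.05 and 6.92 to 6.41, 7.42 and 7.51. Hmmr, a microtubule-associated protein of the spindle, went from 3.07, 3.25 and 3.25 to 3.29, 5.06 and 4.83. Its log2 fold change was 1.21 ± 0.41 (SE, limma adjusted p = 0.0337), a call that 9 of 19 other settings lost. In the Tlr7-/- arm Hmmr was at 2.52, 2.21 and 1.73 and, with CpG, 2.71, 2.23 and 1.96 in Tlr9het and at 3.11, 1.88 and 1.62 and 3.17, 2.81 and 2.19 in Tlr997, and was not called. Prc1 rose with CL097 by 1.13 ± 0.33 (SE, limma adjusted p = 0.0188) and the condensin subunit Ncaph by 0.53 ± 0.18 (0.0327), calls that 5 and 8 of 19 other settings lost. All 3 of these calls were lost without unstimulated replicate 1 or 3 and without CL097 replicate 2 or 3, where limma adjusted p-values lay between 0.055 and 0.0608 for Prc1, 0.0707 and 0.101 for Hmmr and 0.0702 and 0.113 for Ncaph. The call of Hmmr was also lost without unstimulated replicate 2 (0.0706).

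Leaving out replicate 1 with CL097 raised the count of mitotic genes called higher from 6 to 33 of 47, while over all genes tested the higher calls went from 2520 to 2356 (21.6%). Among the 33 were Mki67, with a log2 fold change of 1.68 (limma adjusted p = 5.24e-05), Ube2c with 1.55 (0.00393), Anln, a scaffold of the cytokinetic ring, with 1.38 (0.00027) and Kif11, the motor that pushes the spindle poles apart, with 1.06 (0.000183). Leaving out replicate 2 or replicate 3 with CL097 gave 2 higher calls, and leaving out replicate 1 of the unstimulated libraries gave 3. Cenpa and Ndc80 stayed the 2 genes called lower without CL097 replicate 1, beside 22.9% of all genes, with log2 fold changes of -1.30 and -0.78. With the erythroid level as a covariate, 4 of the 47 rose and 4 fell with CL097, beside 22.6% and 23.3% of all genes, the added ones being Aurkb (-0.61, limma adjusted p = 0.0421) and Mad2l1 (-0.54, 0.0383), and the median change was 0.19. The replicate that stood apart was thus also the one with the smallest erythroid rise, and what set it apart was not tested.

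**Figure D4:**
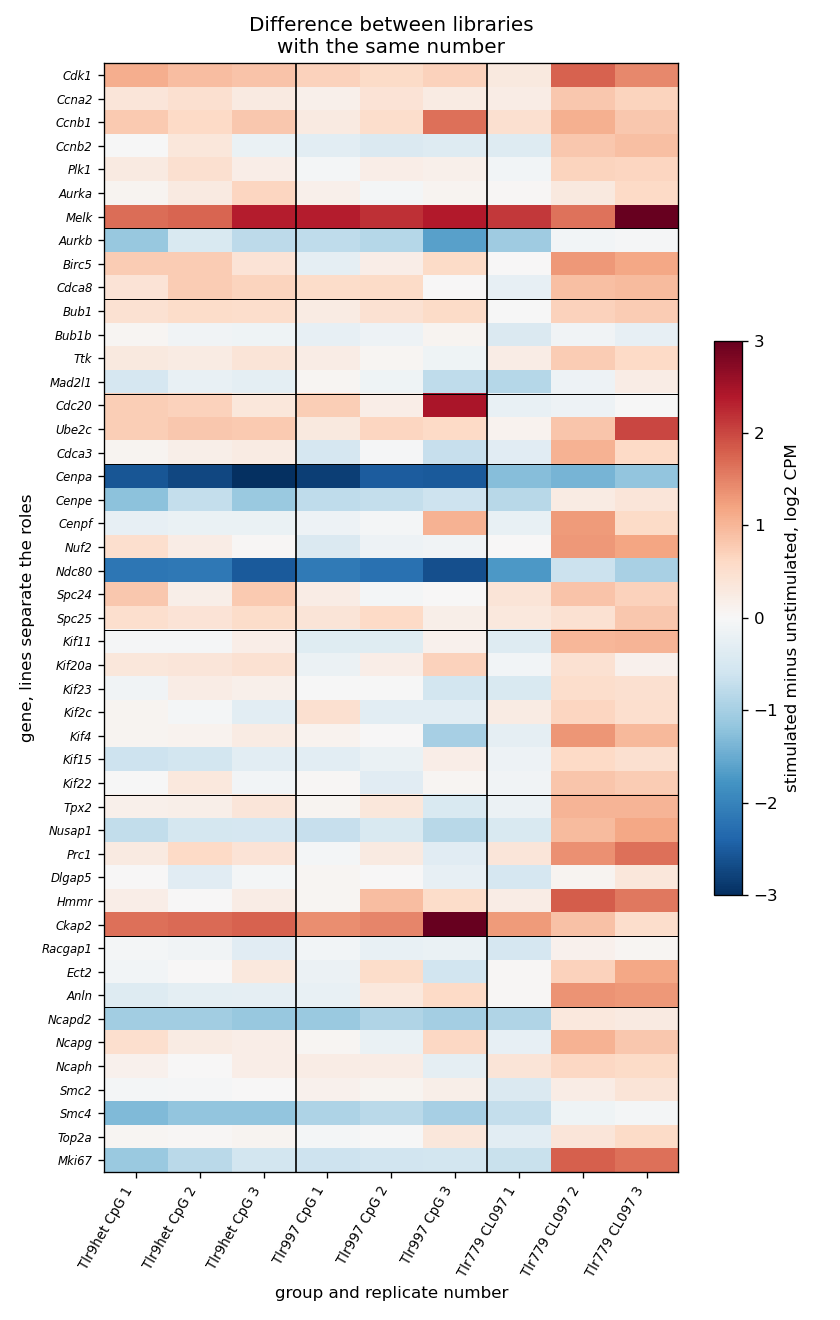
Difference between the stimulated and the unstimulated library of the same replicate number (colour, log2 CPM, red higher with agonist) for the 47 genes (rows, by role) in the 9 sets of 2 libraries with the same number (columns). The columns of CL097 replicates 2 and 3 are red for 40 and 41 genes, that of replicate 1 for 18, and the Cenpa and Ndc80 rows are blue throughout.

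With CpG the same counts hardly varied between libraries: 28, 28 and 29 of the 47 were higher than in the unstimulated library of the same number in Tlr9het, and 23, 23 and 25 in Tlr997, where a shared number pairs the libraries only in part. Mki67 was lower with CpG than in the library of the same number in 6 of 6, at 6.20, 5.24 and 4.58 log2 CPM in Tlr9het and 6.79, 5.66 and 5.26 in Tlr997, yet its log2 fold changes of -0.82 ± 0.58 and -0.58 ± 0.58 (SE) were small against the spread between libraries and had limma adjusted p-values of 0.217 and 0.381. In the fit with the replicate number as a block, the fall of Mki67 was called in both genotypes (limma adjusted p = 7.07e-06 in Tlr9het and 0.00013 in Tlr997). Top2a was at 6.30, 6.09 and 5.93 in Tlr9het and 6.50, 6.23 and 6.08 in Tlr997 with CpG, changes of 0.06 ± 0.18 and 0.09 ± 0.18 (SE) that were not called.

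The remaining groups gave no call in any stimulation comparison as first fitted. With CL097 the replicate block called the checkpoint kinase Ttk and the cytokinesis genes Ect2 and Anln. Leaving out CL097 replicate 1 called these genes higher, along with Bub1 and the kinesins Kif11, Kif2c, Kif4, Kif15 and Kif22, beside 21.6% of all genes. Among the 4 spindle checkpoint genes, which hold back anaphase until all chromosomes are attached, log2 fold changes ran from -0.33 to 0.51 in Tlr9het, -0.28 to 0.43 in Tlr997 and -0.27 to 0.53 in Tlr779. Bub1, a checkpoint kinase, had 0.51 ± 0.22 (SE, limma adjusted p = 0.0532) in Tlr9het, and Mad2l1, the inhibitor of Cdc20, had -0.33 ± 0.16 (0.0753). Several other settings called Bub1 higher there. Among them were the replicate block (limma adjusted p = 0.0142), only the libraries of the groups compared (0.0278) and the erythroid covariate (0.028). The 7 kinesins ranged from -0.49 to 0.39, -0.29 to 0.24 and 0.17 to 0.68. Of these, Kif15 in Tlr9het passed the adjusted p (0.0416) with a change of -0.49 ± 0.20 (SE) that lay just under the fold threshold. Kif15 was called lower there with array quality weights (limma adjusted p = 0.00482). The same held without unstimulated replicate 3 (0.00731) or CpG replicate 1 (0.0217). The 3 cytokinesis genes ranged from -0.32 to 0.08, -0.17 to 0.23 and -0.10 to 0.89. Ube2c, at 3.52, 2.77 and 2.14 log2 CPM in Tlr9het and 3.72, 2.74 and 2.13 in Tlr997 with CpG and 3.50, 5.14 and 5.34 in Tlr779 with CL097, was higher than in the unstimulated library of the same number in 9 of 9. It was called in none of the 3 comparisons as first fitted, and in all 3 with the replicate block. In the groups described above, cyclins Ccna2 and Ccnb2, the centromere protein Cenpf, the spindle proteins Tpx2, Nusap1 and Dlgap5, the condensin subunit Ncapg and Cdca3 were not called either. Of these, Nusap1, which bundles spindle microtubules, was lower with CpG than in the library of the same number in 6 of 6, with log2 fold changes of -0.59 ± 0.33 and -0.66 ± 0.33 (SE, limma adjusted p = 0.127 and 0.092). With the replicate block Nusap1 was called lower in both (limma adjusted p = 0.000373 and 0.00017).

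Whether the TIR domain of the TLR9 receptor mattered for these genes was asked by setting Tlr997 against Tlr9het. Without agonist 0 of the 47 differed in limma, and 1 had an unadjusted p under 0.05, where 0.0174% of all 11494 genes were called higher and 0% lower. With CpG 0 of 47 differed again, and 3 had an unadjusted p under 0.05, where 1.26% of all genes were called higher and 1.47% lower. The difference between the CpG responses was called for 0 of 47, with 1 at an unadjusted p under 0.05, against 0.687% higher and 0.853% lower of all genes. Melk came nearest with CpG, 0.54 ± 0.16 log2 units higher in Tlr997 (SE, limma adjusted p = 0.0656). The difference between the responses of the 47 ran from -0.58 to 0.55 log2 units. Small differences leaned to 1 side: without agonist 36 of the 47 were higher in Tlr997, beside 47.54% of all genes (medians 0.19 and -0.01). With CpG 34 were, beside 50.15% (medians 0.097 and 0.0005). The difference between the responses was above 0 for 18 of the 47, beside 51.7%. With CpG, 1 gene was called in a fit with the replicate number as a block (Mki67, 0.56 higher in Tlr997, limma adjusted p = 0.0104), 1 with the erythroid covariate (Melk) and 1 without replicate 2 or without replicate 3 of unstimulated Tlr997.

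Other genes of the cell cycle were taken from a list of 76 further G2/M genes and a list of 40 DNA replication genes, each counted whole. Of the G2/M list, 19 of 75 tested rose and 9 fell with CpG in Tlr9het, 20 rose and 10 fell in Tlr997, and 21 of 76 rose and 3 fell with CL097 in Tlr779. Over all genes tested, 29.7%, 29.6% and 22.7% rose and 28.2%, 26% and 23.6% fell in these 3 comparisons. Mybl2, the B-Myb factor that joins MuvB to switch on G2 genes, rose by 4.51 ± 0.15, 3.60 ± 0.15 and 3.21 ± 0.18 (SE) on the log2 scale in Tlr9het, Tlr997 and Tlr779. Wee1, the kinase that holds Cdk1 inactive, rose by 2.02 ± 0.10, 1.67 ± 0.10 and 1.63 ± 0.15, while Cdc25b, a phosphatase that releases Cdk1 from this block, fell by 2.96, 2.61 and 1.79. Kif18a, a kinesin that dampens chromosome movements, fell with CpG by 1.57 and 1.65. All of these were called by limma.

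Of the 40 replication genes, 16 rose and 3 fell with CpG in Tlr9het, 19 rose and 2 fell in Tlr997, and 20 rose and 1 fell with CL097 in Tlr779. The shares over all genes tested were 29.7%, 29.6% and 22.7% higher and 28.2%, 26% and 23.6% lower. Median log2 fold changes of the replication genes were 0.43, 0.57 and 0.58, those of the 47 mitotic genes 0.11, -0.01 and 0.52. Tyms, which makes thymidylate for DNA, rose by 2.73 ± 0.23, 2.81 ± 0.23 and 2.57 ± 0.18 (SE) on the log2 scale, and Orc1, a subunit of the origin recognition complex, by 2.18 ± 0.18, 1.91 ± 0.18 and 1.88 ± 0.23. Pold1, the catalytic subunit of a replicative polymerase, fell by 1.17, 0.93 and 0.54 (all called by limma).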

How the data were processed

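Per the study's methods and the submitters' processing notes, the authors prepared stranded mRNA libraries, trimmed reads with Trim Galore 0.6.5, aligned them to mm10 with STAR 2.6.1a, counted them per gene with featureCounts of Subread 2.0.1, and applied quantile normalization and voom. The deposited values were log2 CPM with 3 decimals, 1 file per library, without counts, so that no counting interval was computed. Voom's offset understates the changes of low genes. Of 6209 genes under -4 in all 18 libraries, 6008 had 1 value per replicate number, which for 524 differed between numbers, a trace of an offset removed per number. Unused sample columns numbered 0.

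The members and lists were chosen with earlier results of these data known. Limma 3.58.1 (R 4.3.3) was fitted with a variance trend and a mean per group to genes with at least 3 fitted libraries over 0 log2 CPM, using the 12 libraries of the Tlr7-/- arm together and the 6 of Tlr779 alone, with Benjamini-Hochberg adjustment over all genes tested. Calls needed an adjusted p under 0.05 with a log2 fold change over 0.5 in size, the thresholds of the study. Errors of fold changes are moderated standard errors. Values of every library are printed for Mki67, Top2a, Ccnb1, Cdk1, Plk1 and Aurka, for the top 3 and bottom 3 of the called genes by log2 fold change in each stimulation comparison, and for genes called against the majority. Those of Ube2c were added after its slope had been seen. Of the other lists, only genes among the 3 largest or 3 smallest called changes were named.

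Cells of 3 mice per genotype were used, according to the protocol. Deviations from the group means, over 11676 genes, correlated between libraries of the same number at 0.52, 0.27 and 0.51 in Tlr9het, 0.22, 0.41 and 0.28 in Tlr779, and 0.39, 0.066 and 0.036 in Tlr997. Numbers were taken to pair the libraries of Tlr9het and Tlr779. Tested on simulated data, the fit recovered 98 of 100 genes changed by 2 log2 units and 87 of 100 changed by 1 for CpG in Tlr9het, and 91 and 71 for CL097 in Tlr779. The simulated noise was independent between genes and libraries, and the changed genes were drawn at random. These rates therefore do not hold for the mitotic genes, which moved together between libraries. The alternatives were the set of libraries fitted, the replicate block, the filter, a pseudocount of 1, centring, the variance model, library weights, the fold threshold and leaving out each library. Control libraries of the Tlr779 arm were not analysed here. An erythroid marker beside the 14 symbols counted is not reported here and entered no erythroid value.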

Additional observations from a re-analysis of the deposited data

How the results depend on the processing

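No call of a mitotic gene in the 3 stimulation comparisons turned direction under any alternative run. Melk, Cenpa and Ndc80 were called under all of them in all 3 comparisons. The number of genes called higher with CpG in Tlr9het, 4 as reported, was 7 with only the libraries of the groups compared, 8 with the replicate block, 2 at a log2 fold change over 1 and 10 with the erythroid covariate, and between 2 and 7 with single libraries left out. In Tlr997 the 3 became 7 with the replicate block and 7 with the erythroid covariate, and between 2 and 7 with single libraries left out. Numbers pair the libraries of Tlr997 only in part, and its blocked counts were 7 higher and 8 lower. With CL097 the 6 became 16 with the replicate block, 3 without a filter on low values and between 2 and 33 with single libraries left out, and the 2 lower became 4 with the erythroid covariate. Between the genotypes with CpG, the count of 0 higher became 1 with only the libraries of the groups compared, 1 with the replicate block, 1 with array quality weights, 1 with the erythroid covariate and between 0 and 1 with single libraries left out. Where libraries were left out the fit had fewer samples. Causes of the other moves were not tested. Without counts, the part of sequencing depth in the spread between libraries is unknown.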
